A study of Mus musculus with 20 samples.

Results

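The genes described here encode the proteins of the cytosolic ribosome in mouse. Members were the genes whose symbol is Rpl or Rps followed by a number, with the forms Rplp0 and Rplp2 and with paralogs such as Rps27l, and without the Rps6k kinases and pseudogenes. Only probe sets that the platform annotation gives a single symbol were used, and the brightest of these over the 20 arrays stood for each gene. This gave 48 genes of the 18193 genes that have such a probe set: 20 of the large subunit, 20 of the small subunit, the stalk proteins Rplp0 and Rplp2, and 6 paralogs (Rpl3l, Rpl7l1, Rpl22l1, Rpl39l, Rps4l and Rps27l). Another 29 ribosomal protein genes, among them Rpl3, Rpl5, Rpl15, Rpl26, Rpl35a, Rplp1, Rps13 and Rps23, have only probe sets that the annotation assigns to several symbols, and they are not members.

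Each ribosome carries one copy of nearly every ribosomal protein, and the mRNAs of these proteins are among the most abundant in growing cells. Many of them start with a run of pyrimidines, the terminal oligopyrimidine (TOP) motif, through which their translation follows mTOR signalling. Iron regulatory protein 1 (IRP1) binds another element, the iron-responsive element, a stem-loop in mRNAs of iron metabolism such as ferritin and the transferrin receptor.

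The series measured RNA recovered with IRP1 on Affymetrix Mouse430_2 arrays, for 5 tissues of C57BL6/J mice of both sexes. Duodenum, liver and spleen came from animals fed an iron-poor diet (under 10 mg/kg) for 21 days from weaning, while animals of 8 to 10 weeks with normal dietary iron gave bone marrow and brain. Diet and age therefore cannot be told apart from tissue. RNA was pooled over mice, 6 where a bone marrow or brain sample states its number and 4 in the duodenum sample that does. In the IRP1 reaction 50 µg of total RNA was combined with bacterially produced, His-tagged IRP1 and an anti-IRP1 antibody raised in rabbit, and in the control reaction IRP1 was left out. About 120 ng of recovered RNA was amplified in both. Each tissue had 2 arrays per reaction, 20 arrays in 10 groups. Because of the pooling, p-values here do not measure variation among individual animals. They reflect variation among pull-downs and arrays, and possibly among pools. Whether the replicates of a tissue came from the same pool is not stated. The control reaction holds RNA that came down without IRP1, so levels in it are levels of that RNA and not of total tissue RNA. In pooled tissue, fewer cells of a type and less RNA per cell cannot be told apart.

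Values are on a log2 scale as deposited, where a difference of 1 is 2-fold. Array medians lay between 5.5 and 5.6, and replicate arrays correlated at 0.983 to 0.992 over all probe sets. Marker means for enterocytes, hepatocytes, B and T cells, neutrophil precursors, and neurons and glia peaked in duodenum, liver, spleen, bone marrow and brain, respectively. Single markers departed from this. Of 7 enterocyte markers 1 was highest in liver, and of 8 hepatocyte markers 1 in duodenum. Of 8 neuron and glia markers 1 was highest in bone marrow. The control arrays of duodenum and spleen also held acinar pancreas markers, at means of 14.0 and 10.2, where the controls of the other tissues reached at most 7.03. Relative to the median array, the spiked hybridization controls stood at -1.22 on spleen IRP1 replicate 2 and at -1.42 on spleen control replicate 2. For scale, the mRNA of the transferrin receptor Tfrc was higher with IRP1 by 2.19 ± 0.12 (log2, SE) over the 5 tissues, and that of ferritin heavy chain Fth1 by 0.84 ± 0.10 (limma, adjusted p = 3.96e-08 and 0.000316).

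The starts of 10 members that the results below turn on are shown first, because many ribosomal protein mRNAs are known to start with a pyrimidine run. Each line gives 30 bases of the sense strand around the longest run of C or T between 20 bases before and 30 bases after the annotated start (RefSeq, GRCm38.p6, plus strand). Capitals mark that run.
Rpl7a, chr2:26910788-26910817: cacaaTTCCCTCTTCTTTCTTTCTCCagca
Rpl12, chr2:32961701-32961730: gagcaggatccgTCTTTTCggctttcggct
Rpl14, chr9:120571501-120571530: agggcgggCCCTCTCTCTTCTCgctgagcg
Rpl22, chr4:152325706-152325735: ccgaCTTCgccctgggaaaagcaatagctg
Rpl22l1, chr3:28805499-28805528: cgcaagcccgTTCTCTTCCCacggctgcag
Rplp0, chr5:115559466-115559495: aggaccgcctggTTCTCCTataaaaggcac
Rplp2, chr7:141447636-141447665: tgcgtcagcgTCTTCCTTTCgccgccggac
Rps15, chr10:80292411-80292440: gCCCTCCCggcagagctcgcgataactgcg
Rps25, chr9:44407694-44407723: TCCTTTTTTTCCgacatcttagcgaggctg
Rps27l, chr9:66946066-66946095: cctctccaCTCCTCCCCgccgcctctatcc

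The run was 21 letters long in Rpl7a and crossed the annotated start, as did runs of 14 letters in Rpl14 and 10 in Rplp2. The runs of Rpl22, Rps15, Rps25 and Rps27l lay wholly before the annotated start. Those of Rpl12 and Rpl22l1 began at base 2 after it, and that of Rplp0 at base 12. In Rpl22 no run was longer than 4 letters. Of the 48 members, 42 have an entry in the promoter table, and the first listed start of each gene was used. A run of at least 7 letters stood in 27 of those 42 windows (64.3%), against 27.7% of 17492 protein-coding genes. A run anywhere in the window counted, so this is not a count of TOP motifs. The letters CCGGAAG, a core that ETS-family factors bind, were found on either strand of the 300-base promoter in 20 of the 42 (47.6%), against 11.9% of all. AAGATGGC, a core bound by Yy1, was found in 3 (7.14%), against 3.22%. The letters CAGTGN, which form the loop of an iron-responsive element, stood on the sense strand in the first 50 transcribed bases of 2 members (4.76%), Rpl27 and Rps24, against 6.53% of all genes. The search was for letters alone, without the stem.

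The control reactions were compared first, to see how the members vary between tissues where no IRP1 was added. Ribosomal protein mRNAs were highest in spleen and lowest in brain and liver. The F-test over the 5 control groups passed for 43 of the 48 members, or 89.6% (limma, adjusted p under 0.05), where 63.1% of all 45037 probe sets passed. Of the 235 probe sets with a mean of at least 12 and no ribosomal protein symbol, 201 (85.5%) passed, a share near that of the members. The control mean was highest in spleen for 35 members, in bone marrow for 7, in duodenum for 3, in liver for 3 and in brain for 0. It was lowest in brain for 29 and in liver for 14. Averaged over the 34 members with a mean of at least 10, the control level was 13.2 ± 0.20 in spleen, 12.8 ± 0.18 in bone marrow, 12.6 ± 0.18 in duodenum, 11.7 ± 0.34 in liver and 11.6 ± 0.26 in brain (SD, n = 2 arrays). In that average the bone marrow arrays, at 12.6 and 12.9, overlapped with the duodenum arrays, at 12.5 and 12.8, and liver overlapped with brain. Both spleen arrays, at 13.1 and 13.3, lay above the other 8.

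**Figure D1:**
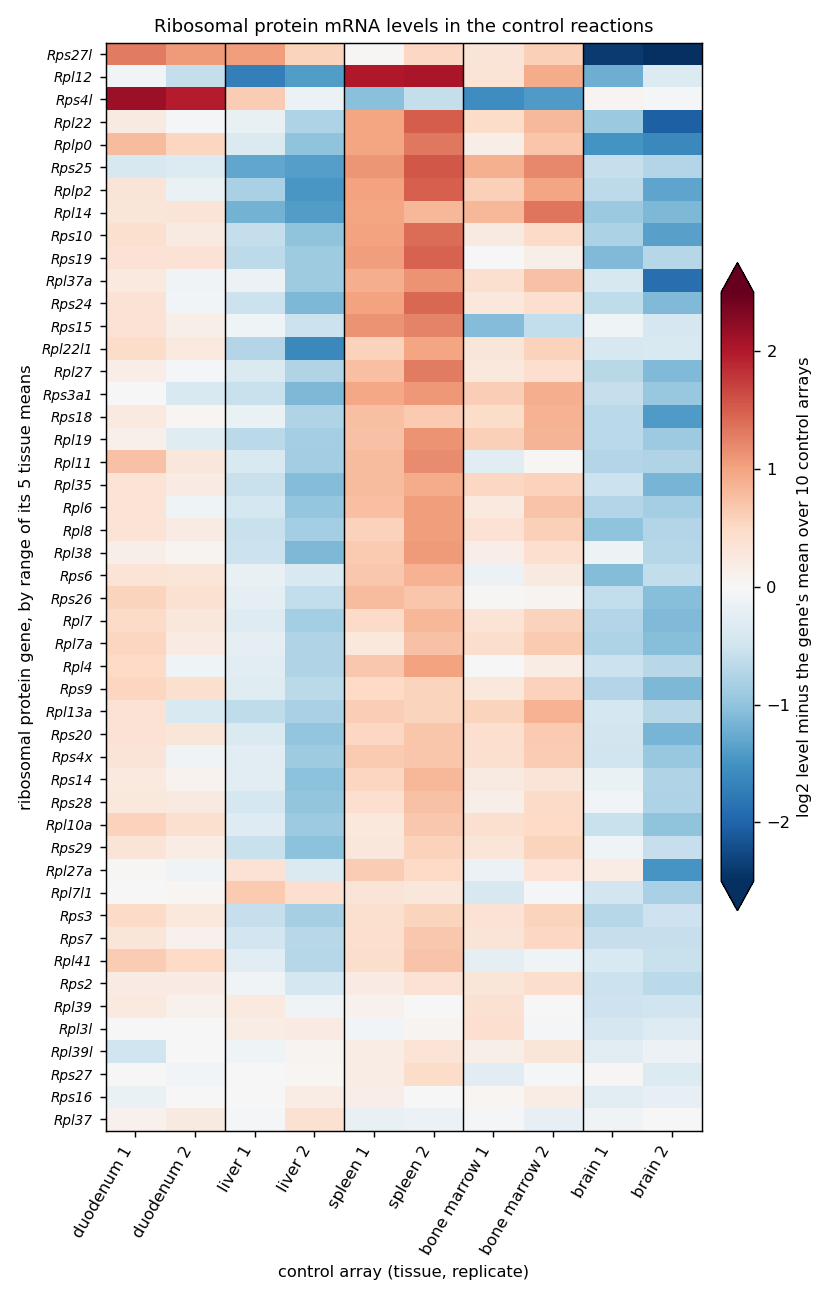
Level of each of the 48 ribosomal protein genes (rows, ordered by the range of their 5 tissue means) on each of the 10 control arrays (columns), as log2 difference from the gene's mean over these arrays. Colours stop at 2.5 on either side; most rows are red in spleen and blue in brain and liver, while Rps27l and Rps4l at the top follow other tissues and the lowest 6 rows are pale throughout.

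In spleen, 38 of the 48 members were higher than in the mean of the other 4 tissues and 1 was lower, with backgrounds of 19.5% and 16.3% of all probe sets. The median difference was 0.86, against -0.07 over all probe sets. In brain, 0 were higher and 36 lower (backgrounds 19.6% and 25.3%), with a median of -0.93 against -0.13. In liver, 2 were higher and 33 lower (16.6% and 22.8%), with a median of -0.74 against 0.02. In bone marrow, 20 were higher and 2 lower (15% and 20.1%), with a median of 0.52 against -0.00. These 4 tissues kept their direction under quantile normalization, median centring and a spread-adjusted model, which holds each array's standard deviation as a term, with medians of 0.84, 0.85 and 0.68 in spleen and -0.76, -0.96 and -0.87 in brain. In liver the median was -0.41, -0.77 and -0.28, and in bone marrow 0.44, 0.57 and 0.62.

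The counts in these tissues rest in part on single arrays. Without liver control replicate 2, 10 members instead of 33 were lower in liver. Without spleen control replicate 2, 23 instead of 38 were higher in spleen, and without bone marrow control replicate 2, 5 instead of 20 were higher in bone marrow. Leaving out both spleen arrays with weak hybridization controls left 25 higher in spleen.

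Duodenum gave no settled direction. There 7 members were higher and 1 lower (backgrounds 15.5% and 18.6%), with a median of 0.26. After quantile normalization 2 were higher and 7 lower, and the median was -0.11. In the spread-adjusted model 2 were higher and 3 lower, and without duodenum control replicate 1 only 2 were higher.

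Both control arrays of a tissue stood above the other 8 for 22 members in spleen, 2 in duodenum, 1 in liver and 0 in bone marrow and brain (8.64%, 9.75%, 11%, 6.92% and 13.8% of all probe sets). They stood below the other 8 for 11 members in brain, 4 in liver, 2 in bone marrow and 0 in duodenum and spleen (13.6%, 7.17%, 6.01%, 5.81% and 5.62%). Most members are bright, so they were set beside the 235 probe sets with a mean of at least 12 that carry no ribosomal protein symbol. Of these, 56 were higher and 13 lower in spleen, 69 and 21 in bone marrow, 17 and 117 in liver, and 28 and 81 in brain, with medians of 0.10, 0.19, -0.51 and -0.23. In duodenum 107 of the 235 were higher and 18 lower, with a median of 0.44, where 7 members were higher and 1 lower. The difference between the members and this class was not tested. On the control arrays the mean level of 6 proliferation markers was 11.8 in bone marrow, 10.8 in spleen, 9.70 in duodenum, 6.61 in liver and 6.02 in brain, and B and T cell markers averaged 10.4 in spleen, 7.87 in bone marrow and at most 5.99 elsewhere. Their part in the members' levels was not tested.

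Large and small subunit genes gave like counts. Of 20 large subunit genes, 17 were higher in spleen, 9 in bone marrow, and 15 lower in liver and 16 in brain. Of 20 small subunit genes, 18 were higher in spleen, 9 in bone marrow, and 15 lower in liver and 15 in brain. The commonest pattern among the members was higher in spleen and bone marrow with lower in liver and brain, which 14 showed. Another 9 showed it without the bone marrow call. The share of all probe sets with these patterns was not counted, so they cannot be called particular to the members.

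Among the large subunit genes, Rpl12 had the widest range. Rpl12 lies at the base of the stalk, where it binds Rplp0. Its control levels were 9.08 and 9.12 in spleen, 7.42 and 8.01 in bone marrow, 7.0 and 6.47 in duodenum, 5.84 and 6.73 in brain, and 5.37 and 5.67 in liver. Both spleen arrays stood above and both liver arrays below all others, while duodenum and brain overlapped. The difference from the other tissues was 2.54 ± 0.24 in spleen and -1.94 ± 0.24 in liver (log2, SE; limma, adjusted p = 2.68e-07 and 4.14e-06).

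Rpl14, a large subunit protein, was 8.11 and 8.61 in bone marrow, 8.27 and 8.11 in spleen, 7.58 and 7.59 in duodenum, 6.35 and 6.16 in brain, and 6.10 and 5.88 in liver. Bone marrow and spleen overlapped and lay above the other tissues, and liver lay below all others. Rpl14 was higher in bone marrow by 1.35 ± 0.17 and lower in liver by a log2 difference of -1.61 ± 0.17 (limma, adjusted p = 7.19e-06 and 8.80e-07).

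Rpl22 is a large subunit protein that T cell development depends on. Its control levels were 13.29 and 13.81 in spleen, 12.76 and 13.11 in bone marrow, 12.54 and 12.25 in duodenum, 12.11 and 11.54 in liver, and 11.38 and 10.27 in brain. The 2 spleen arrays were the highest and the 2 brain arrays the lowest. In brain the difference was -1.85 ± 0.26 (log2, SE; limma, adjusted p = 1.69e-05). The probe sets of Rpl22 disagree: in brain one further probe set gave -1.57 and the other 0.42, which did not pass the threshold (limma, adjusted p = 1.30e-06 and 0.185).

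Rplp0 and Rplp2 are stalk proteins, which recruit translational GTPases to the ribosome. Rplp0 was 13.04 and 13.38 in spleen, 12.85 and 12.59 in duodenum, 12.22 and 12.75 in bone marrow, 11.69 and 11.05 in liver, and 10.56 and 10.44 in brain. Brain stood below and spleen above all other arrays, and duodenum and bone marrow overlapped. The brain difference of -1.94 ± 0.26 (limma, adjusted p = 9.21e-06) is 3.85-fold. Rplp2 was 13.27 and 13.75 in spleen and 12.85 and 13.23 in bone marrow, against 12.58 and 12.09 in duodenum, 11.44 and 10.80 in liver, and 11.60 and 10.95 in brain. Liver and brain overlapped, with differences of -1.42 ± 0.21 and -1.23 ± 0.21 (limma, adjusted p = 4.27e-05 and 0.000132). Rplp0 was also called higher in duodenum by 0.83 ± 0.26 (limma, adjusted p = 0.0212), a call lost after quantile normalization (adjusted p = 0.101) and without either duodenum control (adjusted p = 0.204 and 0.0691).

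**Figure D2:**
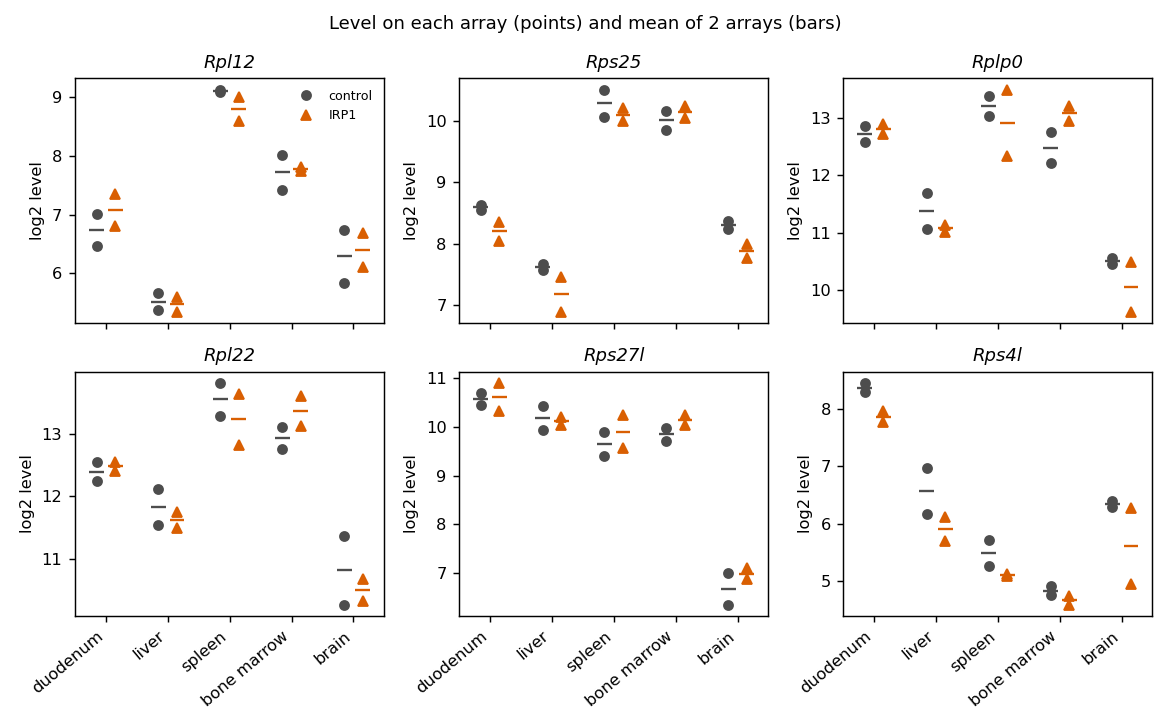
Log2 level (y axes, each with its own scale) of 6 ribosomal protein genes on all 20 arrays by tissue (x axis): grey circles are control arrays, orange triangles IRP1 arrays, and bars the mean of 2. Rpl12 and Rps25 peak in spleen and bone marrow, Rps27l is between 6.35 and 7.10 in brain against at least 9.41 elsewhere, and Rps4l is highest in duodenum and lowest in bone marrow.

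Among the small subunit genes, Rps25, which some viral and cellular mRNAs need for internal initiation, ranged most. It was 10.06 and 10.51 in spleen, 9.85 and 10.17 in bone marrow, 8.55 and 8.63 in duodenum, 8.38 and 8.23 in brain, and 7.66 and 7.58 in liver. Spleen and bone marrow overlapped, and liver was lowest. The difference was 1.65 ± 0.16 in spleen, 1.31 ± 0.16 in bone marrow and -1.68 ± 0.16 in liver (limma, adjusted p = 5.82e-07, 6.61e-06 and 3.37e-07). Its call in duodenum, -0.46 ± 0.16 (limma, adjusted p = 0.0370), was lost without either duodenum control (adjusted p = 0.217 and 0.137).

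Rps15 went its own way in bone marrow. Rps15, which is needed for nuclear export of the small subunit, was 9.37 and 9.82 there, 11.56 and 11.69 in spleen, 10.80 and 10.59 in duodenum, 10.34 and 9.90 in liver, and 10.33 and 10.03 in brain. The bone marrow arrays stood below all other controls, although most members were above average in bone marrow. The difference was -1.06 ± 0.22 (limma, adjusted p = 0.00114), and the other Rps15 probe set gave -1.13 (adjusted p = 0.00546).

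Some ribosomal protein genes are mutated in Diamond-Blackfan anaemia, a failure of red cell production, and 7 of those listed were members: Rps7, Rps10, Rps19, Rps24, Rps26, Rps29 and Rpl11. All 7 were higher in spleen, Rps7 and Rps29 were higher in bone marrow, all 7 were lower in liver, and all but Rps29 were lower in brain. The 7 belong to the 34 members with a mean of at least 10. Of those 34, 33 were higher in spleen, 16 higher in bone marrow, 30 lower in liver and 28 lower in brain. The calls are therefore not particular to the anaemia genes. Rps19, the gene most often affected, was 13.36 and 13.79 in spleen, 12.32 and 12.46 in bone marrow, 12.68 and 12.69 in duodenum, 11.67 and 11.43 in liver, and 11.22 and 11.61 in brain. Spleen stood alone at the top, with 1.57 ± 0.20, and bone marrow differed from the other tissues by 0.08 ± 0.20 (limma, adjusted p = 1.26e-05 and 0.808). Rpl11, which binds Mdm2 when ribosome assembly fails, was higher in spleen by 1.22 ± 0.24 and differed by -0.16 ± 0.24 in bone marrow (limma, adjusted p = 0.000688 and 0.677). Rps6, the target of the S6 kinases, was higher in spleen by 0.97 ± 0.16 and lower in brain, by -1.06 ± 0.16 (limma, adjusted p = 0.000187 and 4.19e-05). The other Rps6 probe set passed in neither tissue, at 0.16 ± 0.13 and -0.02 ± 0.13 (limma, adjusted p = 0.385 and 0.911). It was dim, with a control mean of 3.87 in duodenum and 3.98 over the other tissues, below the array medians, so it reports little.

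Of the paralogs, Rps27l, Rps4l and Rpl7l1 departed from the common pattern. Rps27l, a p53-induced relative of Rps27, had control levels of 10.70 and 10.46 in duodenum, 10.43 and 9.95 in liver, 9.71 and 9.99 in bone marrow, 9.41 and 9.91 in spleen, and 7.0 and 6.35 in brain. Duodenum stood above all others and brain far below, and liver, bone marrow and spleen overlapped. The brain difference was -3.39 ± 0.22, or 10.5-fold (limma, adjusted p = 8.08e-10). Its other probe sets gave -3.16 and -3.44 in brain and 1.29 and 1.52 in duodenum. In liver Rps27l was higher by 1.00 ± 0.22 (limma, adjusted p = 0.00144), where most members were lower; without liver control replicate 1 the call was lost at 0.76 (adjusted p = 0.0554). Rps27 itself lay between 5.08 and 5.88 on the control arrays, around the array median, and the F-test did not pass (limma, adjusted p = 0.127). In spleen Rps27 was called higher, by 0.40 ± 0.14, and both spleen arrays stood above all other controls (limma, adjusted p = 0.0350).

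Rps4l, a relative of Rps4x, was 8.45 and 8.29 in duodenum, 6.96 and 6.17 in liver, 6.4 and 6.29 in brain, 5.27 and 5.72 in spleen, and 4.76 and 4.91 in bone marrow. Duodenum stood above and bone marrow below all other arrays, and liver and brain overlapped. It was higher in duodenum by 2.56 ± 0.25 and lower in bone marrow, by -1.86 ± 0.25, and in spleen, by -1.04 ± 0.25 (limma, adjusted p = 4.74e-07, 1.82e-05 and 0.00412), the last lost without spleen control replicate 1 (adjusted p = 0.0939). The chosen probe set of Rps4x was higher in spleen by 0.85 ± 0.20 and in bone marrow by 0.65 ± 0.20 (limma, adjusted p = 0.00259 and 0.0160). The other Rps4x probe set disagreed in spleen, where it was lower, at -0.43 ± 0.14, and gave 0.30 ± 0.14 in bone marrow (limma, adjusted p = 0.0289 and 0.127). That probe set was dim, with a control mean of 5.25 in duodenum and 4.95 over the other tissues, below the array medians. The chosen one had a mean of 13.3 over the 20 arrays.

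Rpl7l1 was higher in liver by 0.67 ± 0.15, where both arrays (9.20 and 8.96) stood above all other controls, and Rpl7 was lower there, by -0.73 ± 0.23 (limma, adjusted p = 0.00192 and 0.0170). The further probe sets of Rpl7l1 disagreed in liver, one at 0.70 ± 0.15 and the other at -0.00 ± 0.20 (limma, adjusted p = 0.00119 and 0.995). Those of Rpl7 gave -0.85 ± 0.26 and -0.52 ± 0.20 (limma, adjusted p = 0.0159 and 0.0535). Rpl22l1, whose mRNA Rpl22 is known to repress, was lower in liver, by -1.47 ± 0.25, and higher in spleen by 0.98 ± 0.25, as Rpl22 was (limma, adjusted p = 0.00013 and 0.00476). In brain, where Rpl22 was lowest, Rpl22l1 was 11.11 and 11.13 and differed from the other tissues by -0.50 ± 0.25 (limma, adjusted p = 0.114). Rpl3l, a striated muscle form, and Rpl39l, a form known from testis, stayed between 3.63 and 4.92 on every control array, below the array medians. At these levels Rpl3l was called lower in brain, by -0.46 ± 0.14 (limma, adjusted p = 0.0144). Rpl39 was 6.89 and 6.90 in brain and 7.33 to 7.78 elsewhere.

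The 3 members with the smallest range of control means were Rpl37, Rps16 and Rps27, at 0.33, 0.35 and 0.48. Rps16 lay between 3.44 and 3.90 on all control arrays, below the median of every array, so its probe set reports little. Rpl37 lay between 8.76 and 9.36, well inside the scale, with no difference past the threshold in any tissue (limma F-test, adjusted p = 0.697). Its probe set is the only one of a single symbol for that gene.

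Other genes of the translation apparatus were read from lists. Fau and Rpsa, parts of the small subunit outside the naming rule, were both higher in spleen (1.08 ± 0.22 and 1.10 ± 0.20) and both lower in brain and liver. Of 14 translation factors with known TOP mRNAs, 11 were higher in spleen, 5 in bone marrow, and 7 lower in liver and 9 in brain, with 0 in the opposite direction in these tissues. Among them Npm1 was higher in spleen by 1.28 ± 0.24, and the elongation factor Eef1b2 was lower in brain, by -0.96 ± 0.23 (limma, adjusted p = 0.000387 and 0.00245). Of 33 ribosome biogenesis genes, 24 were higher in spleen, with Fbl at 1.40 ± 0.18 and Ncl at 1.41 ± 0.26, and in bone marrow 5 were higher and 4 lower. The 76 mitochondrial ribosomal protein genes went differently. Of them 35 (46.1%) were higher in duodenum and 19 (25%) in liver, and 33 (43.4%) were lower in bone marrow and 28 (36.8%) in brain. In spleen 4 were higher and 4 lower. Of all probe sets, 15.5% were higher in duodenum, 16.6% in liver, 19.5% in spleen and 15% in bone marrow. The shares lower were 16.3% in spleen, 20.1% in bone marrow, 22.8% in liver and 25.3% in brain. The difference between the lists was not tested.

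The second comparison asked whether ribosomal protein mRNAs came down more, or less, with IRP1 than without it. In the mean of the 5 tissues 0 of the 48 members were higher and 1, Rps15, was lower (limma, adjusted p under 0.05), where 0.773% of all probe sets were higher and 1.03% lower. At an unadjusted p under 0.05, 3 were higher and 14 lower (5.97% and 10.4% of all probe sets). The changes ran from -0.52 for Rps15 to 0.37 for Rpl7a, with 11 above 0 and 37 below. Their median was -0.10, against -0.01 over all probe sets and -0.16 over the other bright probe sets. The 95% interval stayed within 2-fold for all 48 members and within 1.5-fold for 41.

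**Figure D3:**
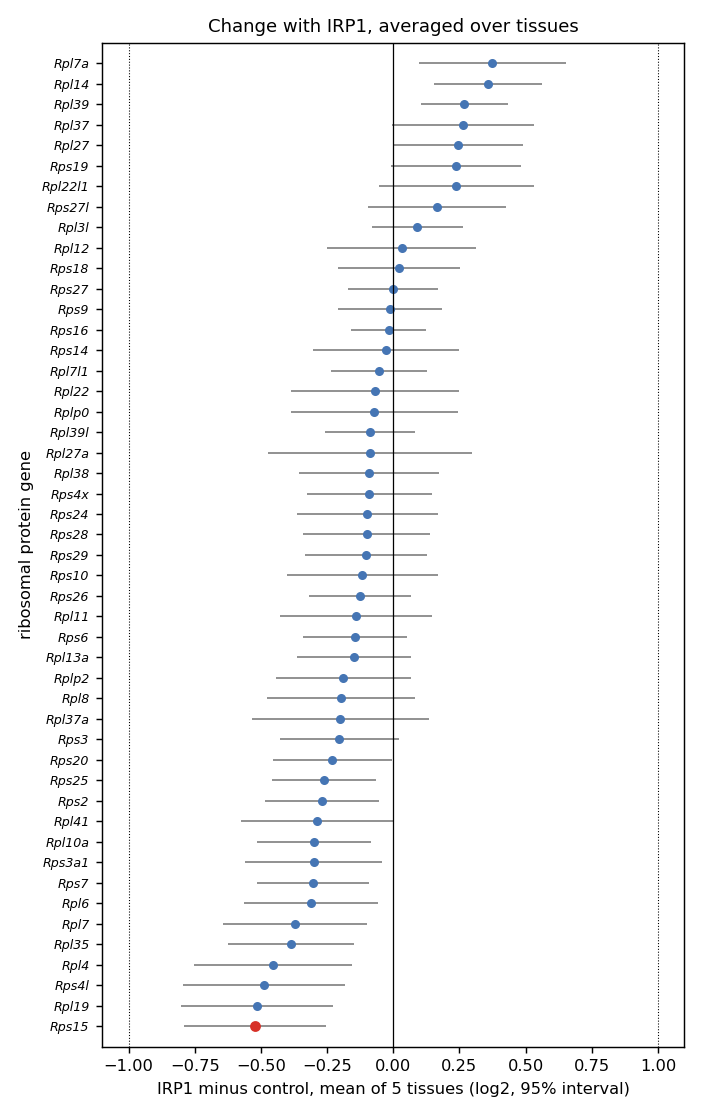
IRP1 minus control in log2, mean of 5 tissues, for each of the 48 ribosomal protein genes (points) with its 95% interval from the limma fit (lines); dotted lines mark 2-fold and the red point passed the threshold. All intervals lie between -0.80 and 0.65.

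Median centring kept these small changes, with a median of -0.12, 11 members above 0 and 37 below, while scalings that act on the spread of an array moved the median to about 0. After quantile normalization the median was -0.00, with 23 members above 0 and 25 below, and in the spread-adjusted model it was -0.00, with 24 and 24. Under quantile normalization 6 members were called higher (Rpl7a, Rpl14, Rpl22l1, Rpl27, Rpl39 and Rps19) and 2 lower (Rps15 and Rpl19). In the spread-adjusted model 3 were called higher (Rpl7a, Rpl22l1 and Rpl27) and 0 lower. Of all 45037 probe sets, 607 were called higher and 517 lower under quantile normalization, and 568 and 144 in the spread-adjusted model.

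Rps15 had the largest drop with IRP1. It was 10.80 and 10.59 in the duodenum controls and 9.98 and 10.21 with IRP1, 10.34 and 9.90 against 9.33 and 9.51 in liver, and 11.56 and 11.69 against 10.62 and 11.00 in spleen. In these tissues the reactions did not overlap. In bone marrow, at 9.37 and 9.82 against 9.61 and 9.84, and in brain, at 10.33 and 10.03 against 9.0 and 10.12, they did. The mean change was -0.52 ± 0.13 (limma, adjusted p = 0.0468), and the other Rps15 probe set gave -0.58 ± 0.16 (adjusted p = 0.0824). Leaving out each array in turn lost the call in 15 of 20 fits, with adjusted p from 0.00305 to 0.116. The call was kept without liver control replicate 2, spleen IRP1 replicate 2, bone marrow control replicate 1, brain control replicate 2 or brain IRP1 replicate 2, and without the last of these 7 members were lower instead of 1. The call was also lost in the spread-adjusted model, at -0.33 (limma, adjusted p = 0.107), and with the replicate number as a block, where Rpl19 was called lower instead (limma, adjusted p = 0.0530 for Rps15 and 0.0330 for Rpl19).

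Rpl7a had the largest rise and a long pyrimidine run across its annotated start. It was 13.49 and 13.16 in the duodenum controls and 13.80 and 13.53 with IRP1, 12.70 and 12.21 against 12.53 and 12.72 in liver, 13.22 and 13.68 against 13.31 and 14.17 in spleen, 13.39 and 13.62 against 14.18 and 14.25 in bone marrow, and 12.18 and 11.88 against 11.97 and 12.81 in brain. The reactions were separate in duodenum and bone marrow and overlapped in the other tissues. The change was 0.37 ± 0.13 as deposited, 0.54 ± 0.07 after quantile normalization and 0.60 ± 0.08 in the spread-adjusted model (limma, adjusted p = 0.155, 0.00047 and 0.000529).

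Rpl14 was above both controls with IRP1 in 4 of 5 tissues, with a change of 0.36 ± 0.10, and Rpl27, one of the members with the CAGTGN letters, in 3, with 0.24 ± 0.12 (limma, adjusted p = 0.0693 and 0.311). Rps24, the other member with those letters, changed by -0.10 ± 0.13 (adjusted p = 0.767). The other Rpl27 probe sets gave 0.31 ± 0.14 and 0.31 ± 0.13. Rps4l lay below both controls with IRP1 in all 5 tissues, for example at 7.96 and 7.78 against 8.45 and 8.29 in duodenum, with a mean change of -0.49 ± 0.14 (limma, adjusted p = 0.0939). No other member was below in all 5. For Rps4l the nearest arrays were close in bone marrow, at 4.75 with IRP1 and 4.76 in the control, and in brain, at 6.27 and 6.29. Its bone marrow values also lay below the array medians. So did spleen control replicate 1 at 5.27, the spleen IRP1 arrays at 5.09 and 5.12, and brain IRP1 replicate 1 at 4.96. How many of all probe sets separate in 3, 4 or all 5 tissues was not counted. Rpl19 changed by -0.52 ± 0.14 and Rpl4 by -0.45 ± 0.14 (limma, adjusted p = 0.0645 and 0.107). The members with a pyrimidine run of at least 7 letters had a median change of -0.10 and those without it -0.09, over 27 and 15 genes.

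In single tissues 0 members were called in either direction. The shares of all probe sets called higher and lower were 0.0799% and 0.0244% in duodenum, 0.091% and 0.0933% in liver, 0.0688% and 0.0333% in spleen, 0.127% and 0.00444% in bone marrow, and 0.0866% and 0.0377% in brain (limma). At an unadjusted p under 0.05 the members higher and lower were 1 and 1 in duodenum (2.02% and 2.06% of all), 2 and 10 in liver (4.82% and 8.69%), 0 and 4 in spleen (2.64% and 6.87%), 2 and 0 in bone marrow (3.27% and 1.72%), and 1 and 9 in brain (2.31% and 4.25%). The median change was -0.03 in duodenum, -0.27 in liver, -0.20 in spleen, 0.14 in bone marrow and -0.32 in brain. The other bright probe sets had medians of -0.07, -0.36, -0.24, 0.20 and -0.31 in the same tissues. The 34 members with a mean of at least 10 had medians of -0.02, -0.32, -0.25, 0.18 and -0.44. In brain these members thus lay lower than the other bright probe sets, a difference that was not tested.

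**Figure D4:**
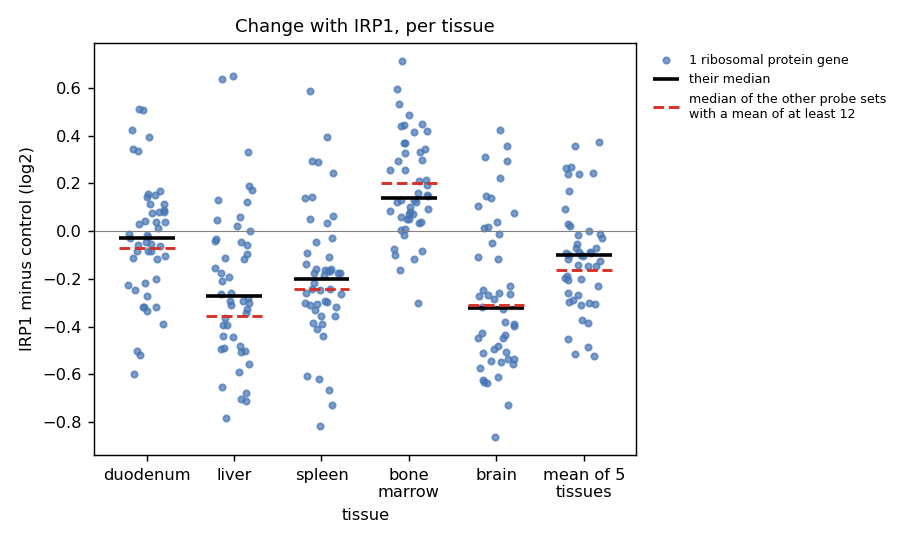
IRP1 minus control in log2 (y axis) for each of the 48 ribosomal protein genes (points, spread sideways for legibility) in each tissue and in the mean of 5 tissues (x axis); black bars are the medians of the genes and red dashed bars the medians of 235 other probe sets with a mean of at least 12. In every tissue the black bar, over all 48 genes, lies within 0.1 of the red one. For the 34 genes with a mean of at least 10 the brain median was -0.44, against -0.31 for the red bar.

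The mean standard deviation of an array's values was 2.23 in both reactions of duodenum, 2.05 in control and 1.93 with IRP1 in liver, 2.20 and 2.09 in spleen, 2.12 and 2.19 in bone marrow, and 2.13 and 2.04 in brain, so it was lower with IRP1 where the members' median was lowest and higher in bone marrow. Median centring kept the medians, at -0.01, -0.30, -0.22, 0.12 and -0.35 in duodenum, liver, spleen, bone marrow and brain. In the spread-adjusted model the medians were -0.03, 0.12, 0.12, -0.04 and -0.04 in duodenum, liver, spleen, bone marrow and brain, and after quantile normalization 0.01, 0.04, -0.02, -0.06 and -0.05. The median thus changed sign in liver and bone marrow under both of the latter, in spleen in the spread-adjusted model and in duodenum after quantile normalization. In brain it stayed below 0, at -0.05 after quantile normalization and -0.04 in the spread-adjusted model.

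Both IRP1 arrays lay above both controls for 6 members in duodenum, 4 in liver, 4 in spleen, 19 in bone marrow and 5 in brain, where 16.6%, 19.2%, 17.6%, 19% and 16.7% of all probe sets did. Both lay below for 13, 23, 11, 1 and 13 members (21.6%, 26%, 22.1%, 11.8% and 16.9%). The test of whether the effect of IRP1 differs between tissues passed for 0 members (limma F-test; 0 also at an unadjusted p under 0.05, where 4.83% of all probe sets passed), against 0.0111% of all probe sets after adjustment. The median SE was 0.26 in each single tissue. Of 48 intervals, 29 stayed within 2-fold in brain, 34 in liver, 37 in spleen, 42 in bone marrow and 43 in duodenum. For the remaining intervals a change of 2-fold in that tissue cannot be set aside. With the same SE in each tissue, these counts follow where the estimates lie and do not measure what 2 arrays could detect.

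Among the lists, 0 of 14 TOP translation factors, 0 of 4 S6 kinase genes and neither Fau nor Rpsa were called in the mean of 5 tissues. Of the ribosome biogenesis genes 3 were lower (Nhp2, Nolc1 and Rrp1) and of the mitochondrial ribosomal protein genes 4 (Mrpl16, Mrps7, Mrps26 and Mrps34), by 0.37 to 0.57 on the log2 scale, and 0 were higher. At an unadjusted p under 0.05, 6 TOP translation factors were lower and 0 higher, and 18 mitochondrial ribosomal protein genes were lower and 5 higher. Of all probe sets, 0.773% were called higher and 1.03% lower after adjustment, and 5.97% and 10.4% passed at the unadjusted threshold.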

How the data were processed

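The authors deposited 1 table of log2 signal per probe set for 20 arrays. Per the series design text, signals came from RMA in Bioconductor or from MAS5 in GCOS followed by quantile normalization; which of these made the table is not given in the sources used here. Such scaling and the floor of the scale can compress changes in very bright and very dim probe sets.

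Here 64 control probe sets were left out and the values used as they stand. One linear model of 10 groups was fitted to 45037 probe sets with limma 3.58.1 (lmFit, eBayes) in R 4.3.3, leaving 10 residual degrees of freedom, and the prior added 6.14. The contrasts were IRP1 minus control per tissue and in the mean of 5 tissues, each control against the mean of the other 4, and F-tests. P-values are two-sided, adjusted by Benjamini-Hochberg over all probe sets, with calls made below 0.05. Differences carry the model's standard errors. The precision is limited by 2 arrays per group. The annotation gives 1 symbol for 34945 probe sets, several for 932 and none for 9160. Symbols and promoters (RefSeq, GRCm38.p6) came from tables given with the data, and motifs and figures were made with Python 3.11.15 and matplotlib 3.10.9. Alternatives were quantile normalization, median centring, the array standard deviation as a model term, filters on dim and x_at probe sets, averaged probe sets, a replicate block, both reactions averaged, and arrays left out. The fit was tested on simulated data.

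Genes were named by rule: called members (up to 12 in a direction for the mean of tissues, up to 3 per tissue and direction for control levels), the 3 with the smallest range, paralogs with the gene they are named after, stalk proteins, Rps6, Rpl11 and genes of Diamond-Blackfan anaemia; beside these, members called under another scaling, those with the CAGTGN letters, and Rpl4, Rpl19 and Rps4l were named after their values were seen. The members and lists were chosen with earlier results of these data known. The labels do not say what a replicate number marks, so the model has no replicate block.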

Additional observations from a re-analysis of the deposited data

How the results depend on the processing

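Counts in single tissues with IRP1 were 0 under all alternatives run, including a fit on the 4 arrays of a tissue alone, and no direction of a called value turned. In the mean of 5 tissues the members called higher went from 0 to 6 after quantile normalization and to 3 in the spread-adjusted model, and from 0 to 1 over fits that leave out 1 array. Those called lower went from 1 to 2 after quantile normalization, to 2 with dim probe sets (mean under 6) left out, to 2 without x_at probe sets, to 0 in the spread-adjusted model, to 0 with a gene's probe sets averaged, and from 0 to 7 over fits without 1 array, the last without brain IRP1 replicate 2. With the replicate block 0 were higher and 1 lower, Rpl19 in place of Rps15 (limma, adjusted p = 0.0330 and 0.0530); Rpl19 was lower with IRP1 than in the control of the same number in 10 of 10 comparisons and Rps15 in 7. Whether the numbers pair the arrays is not settled. Over all probe sets, IRP1 and control arrays of a number deviated together with correlations of 0.27 in duodenum, -0.07 in liver, 0.53 in spleen, -0.04 in bone marrow and 0.12 in brain, but some marker levels followed the number in both reactions: hepatocyte markers in spleen were 6.17 and 6.21 on the arrays numbered 1 and 8.05 and 7.85 on those numbered 2, and in brain 8.15 and 7.93 against 6.79 and 6.91. The median change ran from -0.17 to -0.05 without 1 array. Over all probe sets, calls in the mean of 5 tissues were 348 higher and 464 lower as deposited. They were 607 and 517 after quantile normalization, and 568 and 144 in the spread-adjusted model.

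For control levels in duodenum, 7 higher became 2 after quantile normalization, 2 in the spread-adjusted model and 22 with both reactions averaged; 1 lower became 7, 3 and 2 in the same order, and 0 after median centring and without the arrays with weak hybridization controls. In liver 33 lower became 15 in the spread-adjusted model, and 2 higher became 4 with both reactions averaged. In spleen 38 higher became 25 without the weak arrays. In bone marrow 20 higher became 32 in the spread-adjusted model and 35 with both reactions averaged. Without 1 array the counts ran from 2 to 10 higher and 0 to 1 lower in duodenum, 1 to 2 higher and 10 to 33 lower in liver, 23 to 40 higher and 0 to 1 lower in spleen, 5 to 24 higher and 2 to 2 lower in bone marrow, and 29 to 41 lower in brain; the F-test gave 41 to 43. The cause of these shifts was not tested, beyond fewer arrays where one is left out.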

Other observations

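Another 110 probe sets are assigned to a ribosomal protein gene together with other symbols, mostly pseudogenes, and cannot be given to 1 gene. In the control reactions 84 of them were higher and 0 lower in spleen, 79 were lower and 0 higher in liver, and 83 were lower and 4 higher in brain, with medians of 0.88, -0.73 and -0.77. In bone marrow 31 were higher and 7 lower.

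With IRP1, 0 of the 110 were higher in the mean of 5 tissues and 8 (7.27%) were lower (limma, adjusted p under 0.05). Of all probe sets, 0.773% were higher and 1.03% lower. The largest change was that of a probe set at -0.86 ± 0.09 (limma, adjusted p = 6.84e-05), with both IRP1 arrays below both controls in all 5 tissues; in spleen its change of -1.42 ± 0.21 was called (adjusted p = 0.00908). The 4 other probe sets whose symbols include the same ribosomal protein gene changed by -0.29 to -0.03 and were not called. The 3 probe sets that share 1 other pair of symbols changed by -0.61 ± 0.13, -0.64 ± 0.11 and -0.76 ± 0.12 (limma, adjusted p = 0.0244, 0.0096 and 0.00229).

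The members have 55 further probe sets of their own. Their control differences had the sign of the chosen probe set for 52 in brain, 48 in spleen, 46 in liver, 40 in duodenum and 38 in bone marrow. With IRP1, 2 of the 55 (3.64%) were called lower in the mean of 5 tissues, where 1.03% of all probe sets were. They were a probe set of Rpl35 at -0.44 ± 0.11 and one of Rpl41 at -0.43 ± 0.10 (limma, adjusted p = 0.0478 for both). The chosen probe sets gave -0.39 ± 0.11 and -0.29 ± 0.14 (limma, adjusted p = 0.0897 and 0.304).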
